A study of Homo sapiens with 20 samples.

Results

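Interferon-stimulated genes were followed in 2 human melanoma cell lines, A375 and 1205Lu, with and without silencing of FRA1. The set holds 48 of the 58870 genes in the count table, chosen by gene symbol and grouped by 9 roles, and each symbol matched 1 row. FRA1, the product of FOSL1, is a subunit of the AP-1 transcription factor. RNA-seq covered 12 samples, 3 for each line with non-targeting siRNAs (si-NT) and 3 for each line with siRNAs against FRA1 (si-FRA1), so every RNA sample had received siRNA. Cut&Run, which maps a bound protein by cutting DNA next to an antibody, covered 8 samples: 3 with a FRA1 antibody and 1 with IgG in each line, with no siRNA named for them.

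Interferons are secreted alarm proteins. Type I interferons bind a paired receptor at the cell surface, JAK kinases then activate a complex that holds STAT2 and IRF9 and binds the interferon-stimulated response element (ISRE). Interferon gamma acts mainly through another element, the gamma-activated site (GAS), and induces IRF1, which itself binds ISRE-like DNA. The induced genes encode sensors of viral RNA, enzymes that degrade or tag RNA and protein, and membrane proteins that trap virus, and many tumor cells express part of the set with no virus present.

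The ISRE is the sequence that most of these genes share. It was searched as TTTC, then any 2 bases, then TTTC, on both strands, in 300 bases from 250 before to 50 after each RefSeq start (GRCh38.p14). Of the 48 genes, 39 matched a RefSeq promoter; IRF7, OAS2, OASL, IFIT2, MX2, GBP2, IFITM2, USP18 and TRIM22 did not. The ISRE pattern was present in 25 of the 39 (64.1%), against 3.65% of all 27305 promoters. GAS, searched as TTC, any 3 bases, then GAA, was present in 11 (28.2%, against 7.88%). The AP-1 motif, TGACTCA or TGAGTCA, was present in 2 (5.13%, against 4.92%), ISG20 and SP100. Windows of genes that the results turn on are shown, first for the ISRE, with the match in capitals, each 30 bases, 5′ to 3′ on the strand of the gene.
IFIT1, chr10:89392497-89392526, plus strand: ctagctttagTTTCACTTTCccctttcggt
IFIT3, chr10:89327865-89327894, plus strand: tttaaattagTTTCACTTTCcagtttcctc
ISG20, chr15:88638937-88638966, plus strand: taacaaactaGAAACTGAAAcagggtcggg
SAMD9, chr7:93118096-93118125, minus strand: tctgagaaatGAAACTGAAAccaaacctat
PARP14, chr3:122680800-122680829, plus strand: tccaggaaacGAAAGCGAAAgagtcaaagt
DTX3L, chr3:122564322-122564351, plus strand: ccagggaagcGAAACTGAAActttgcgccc
OAS3, chr12:112938321-112938350, plus strand: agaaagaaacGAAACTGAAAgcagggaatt
LGALS3BP, chr17:78979962-78979991, minus strand: gtggtttctgGAAATCGAAAgtagactctt
TRIM21, chr11:4393666-4393695, minus strand: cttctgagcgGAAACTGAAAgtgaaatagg

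IRF1 and IRF9 had a GAS match and no ISRE match in this window, and the 2 AP-1 matches are printed after them, again with the match in capitals.
IRF1, chr5:132490879-132490908, minus strand: aacagcctgatTTCCCCGAAatgacggcac
IRF9, chr14:24161191-24161220, plus strand: gaccacgtgatTTCTGGGAAaaggccctcc
ISG20, chr15:88638982-88639011, plus strand: tggagttagagaTGAGTCAccgctgagagc
SP100, chr2:230416163-230416192, plus strand: cggagccctttcTGAGTCAgtctgtcggcc
The ISG20 window lies within the promoter that also holds its ISRE. The 160 bases before the start of BST2, a membrane protein that tethers virus particles, show how densely these elements can lie: 2 ISRE matches overlap each other and a GAS match, and a further GAS match follows. Those before IFITM3, a membrane protein that blocks virus entry, hold 2 separate ISRE matches. Capitals mark all ISRE and GAS matches, and neither stretch overlaps an annotated exon of its gene.
BST2, chr19:17405631-17405790, minus strand: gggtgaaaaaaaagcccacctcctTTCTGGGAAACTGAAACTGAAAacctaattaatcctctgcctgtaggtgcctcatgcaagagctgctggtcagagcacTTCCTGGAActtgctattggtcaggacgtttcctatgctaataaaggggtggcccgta
IFITM3, chr11:320861-321020, minus strand: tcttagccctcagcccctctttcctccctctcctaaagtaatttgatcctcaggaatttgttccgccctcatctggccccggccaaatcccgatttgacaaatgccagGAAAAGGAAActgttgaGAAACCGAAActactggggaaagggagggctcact

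The RNA samples held 20573412 to 32518903 counts each. FOSL1 was reduced to 6.22% of its si-NT mean in A375 cells and to 14.1% in 1205Lu cells, in all 3 samples of each group. Of 7 melanoma and melanocyte markers, SOX10, S100B and S100A1 stood at 912, 426 and 188 CPM (counts scaled to a common library size) in 1205Lu si-NT cells and at 43.9, 0.991 and 1.201 in A375 si-NT cells, and MITF at 3.54 and 52.1. PMEL was at 0.697 and 0.489 CPM, and the pigment genes MLANA and TYR reached at most 13 and 8 counts in any sample. Silencing moved 4 of the 5 tested markers in A375 and 3 of 5 in 1205Lu cells. Of all genes tested, 25.7% were higher and 25.1% lower in A375, and 20.6% and 19.9% in 1205Lu cells. SOX10 moved by -0.44 (adjusted p = 8.86e-08) and -0.24 (adjusted p = 2.18e-10) on the log2 scale. MITF went from 54.6, 49.9 and 51.9 CPM in A375 si-NT to 60.4, 67.2 and 64.3 in si-FRA1 samples. S100A1 went from 191.5, 179.9 and 191.8 CPM in 1205Lu si-NT to 71.24, 71.75 and 73.53 in si-FRA1 samples. In A375 it went from 1.265, 1.304 and 1.035 to 3.304, 1.793 and 2.628. The part of the markers in the results was not tested. The 6 leukocyte markers together stood at 0.444 to 1.71 CPM in every sample, and 1 of the 6 was high enough to test in A375 cells and 0 in 1205Lu cells. The summed level of the 4 epithelial markers, almost all of it KRT8, was 119 to 129.5 CPM in A375 si-NT and 186 to 189 in si-FRA1 samples, and its part in the results was not tested. The labels do not say that replicates were separate cultures, so p-values measure the spread between these samples.

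In A375 cells, silencing of FRA1 was followed by higher RNA of most interferon-stimulated genes. Of 48 genes, 44 passed the filter on low counts, and 31 were higher at an adjusted p under 0.05 (70.5%, against 25.7% of all 16899 genes tested), while 2 were lower (4.55%, against 25.1%). The median log2 fold change (si-FRA1 over si-NT; later values follow it as ± SE) was 0.372, beside -0.00261 over all genes tested. At a log2 fold change over 1, 4 genes were higher (background 2.77%): BST2, XAF1, IFI44L and IFITM1. The 2 lower genes were DTX3L and OAS3, and the lowest value, -0.65 for DTX3L, was short of -1 (background 2.79%). Bulk RNA does not tell more RNA per cell from more cells that express a gene.

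In 1205Lu cells the picture was mixed. Here 39 of the 48 genes passed the filter, 12 were higher (30.8%, against 20.6% of 17136 genes tested) and 5 were lower (12.8%, against 19.9%), and the median log2 fold change was 0.195, beside -0.00483 over all genes tested. IRF1, IFIT1 and IFIT3 were higher by a log2 fold change over 1 (background 1.09%), and CMPK2 was lower by more than 1 (background 2.04%). The other genes called lower were ISG20, OAS3, DTX3L and DDX58. The count of 5 rested on single samples: it was 3 without si-NT replicate 1, 3 without si-NT replicate 2, 3 without si-FRA1 replicate 3, and 3 when all 12 samples shared 1 fit.

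**Figure D1:**
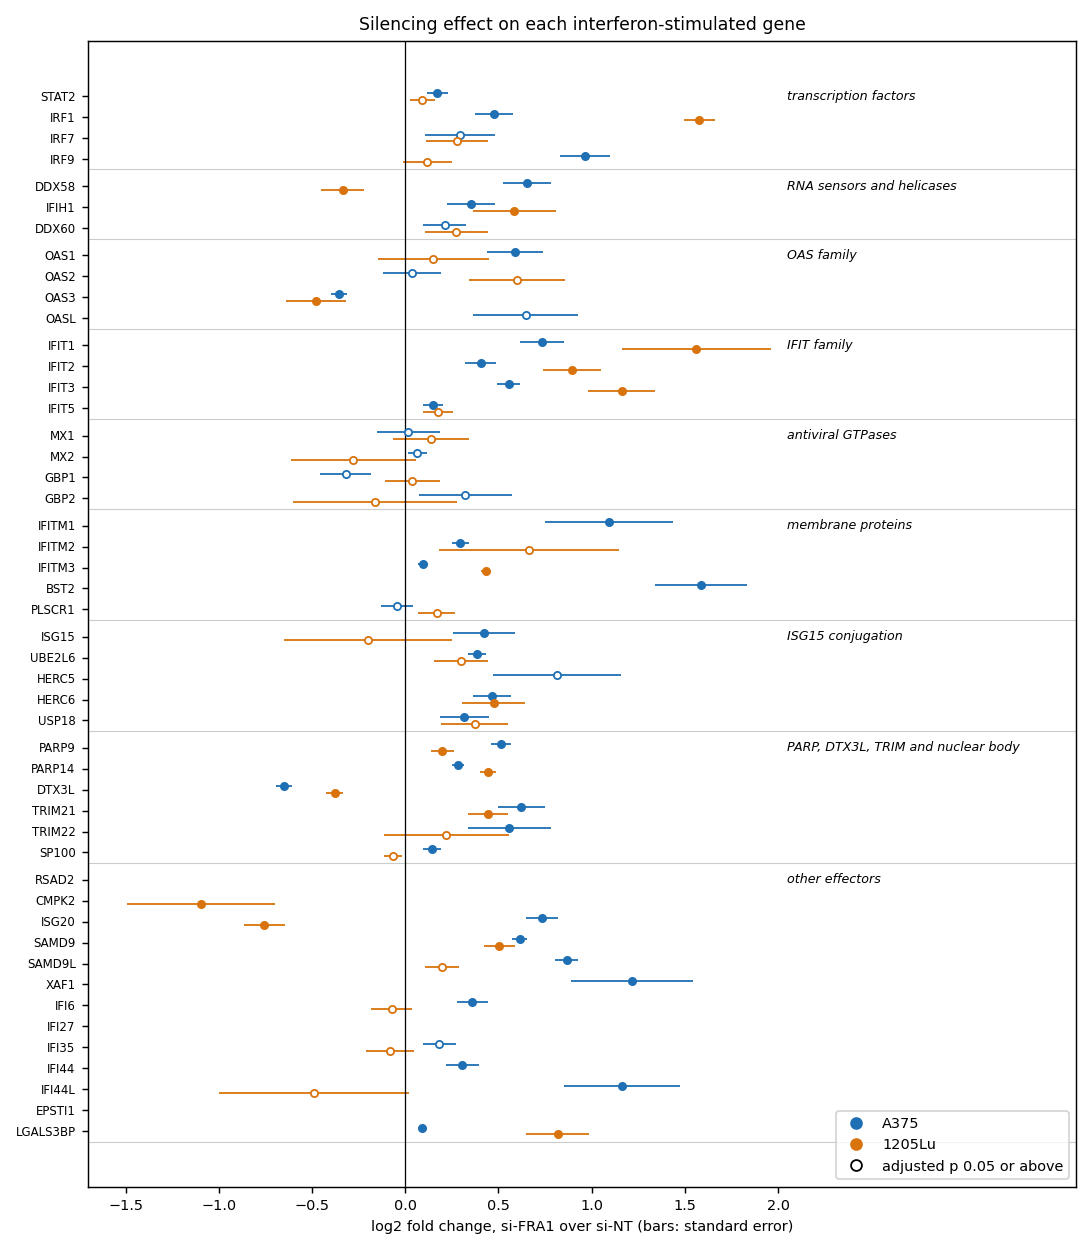
The plot gives the log2 fold change of each of the 48 genes, si-FRA1 over si-NT, with its standard error, in A375 (blue) and 1205Lu (orange), grouped by role; open circles did not pass an adjusted p under 0.05, and a gene with no circle was not tested in that line. Blue points lie mostly to the right of 0 (31 higher and 2 lower), orange points on both sides (12 higher and 5 lower).

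Over the 38 genes tested in both lines, 12 were called higher in both (31.6%, against 10.4% of 15056 genes tested in both), 2 lower in both (5.26%, against 10.8%) and 2 in opposite directions (5.26%, against 8.86%). The log2 fold changes of these 38 genes correlated weakly between the lines (Pearson r = 0.153, Spearman rho = 0.124), across genes that share the libraries of each line, given as a description. The interaction test, which asks whether the effect of silencing differed between the lines, was run on 45 of the 48 genes: 8 had a larger value in 1205Lu (against 16.6% of 19452 genes) and 9 a smaller one (against 15.3%). The members' shares were near those of all genes.

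**Figure D2:**
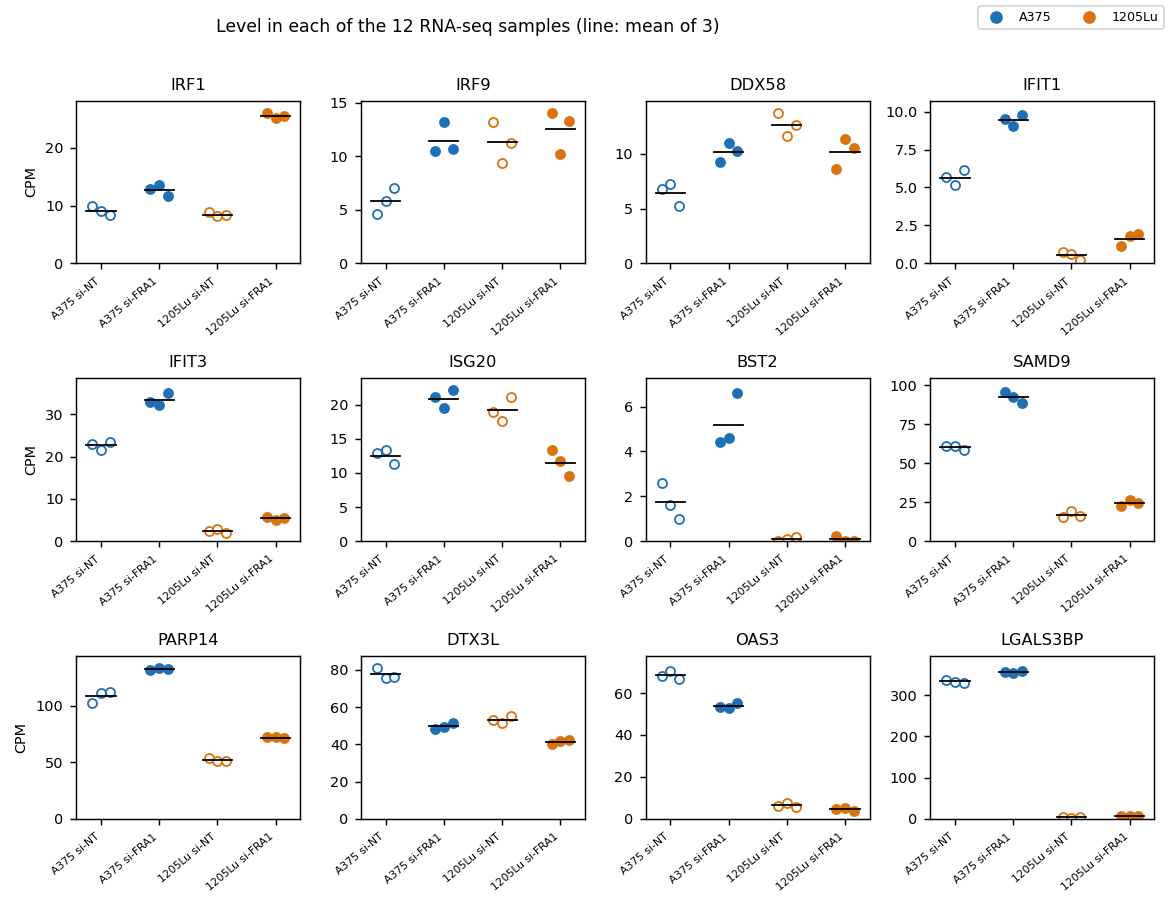
Level of 12 genes in each of the 12 RNA-seq samples, in CPM on a linear axis from 0, with A375 in blue, 1205Lu in orange, si-NT as open and si-FRA1 as filled circles, and the mean of 3 as a line. IRF1 rises furthest in 1205Lu cells, ISG20 and DDX58 rise in A375 and fall in 1205Lu cells, DTX3L and OAS3 fall in both, and BST2 is near 0 in all 1205Lu samples.

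Of the 4 transcription factors that drive the response, 3 were called higher in A375 (against 25.7% of all genes tested). In 1205Lu cells 1 of 4, IRF1, was called higher, near the 20.6% of all genes tested. IRF1, on chr5:132440440-132508719 (GRCh38, GENCODE v44), activates ISRE-bearing genes and stood at 9.94, 9.01 and 8.44 CPM in A375 si-NT cells and 12.9, 13.6 and 11.6 CPM in si-FRA1 cells. It was at 8.83, 8.13 and 8.29 CPM in 1205Lu si-NT cells and 25.9, 25.1 and 25.5 CPM in si-FRA1 cells. The groups did not overlap in either line, and the 1205Lu si-FRA1 samples were the highest of all 12. The log2 fold change was 0.48 ± 0.10 SE, adjusted p = 0.000438, in A375 cells and 1.58 ± 0.081 SE, adjusted p = 4.01e-12, in 1205Lu cells. The 2 effects differed by 1.11 ± 0.13 SE, adjusted p = 2.17e-07.

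IRF9, the DNA-binding partner of STAT2, showed the converse. Its level was 4.65, 5.81 and 6.99 CPM in A375 si-NT cells and 10.5, 13.2 and 10.7 CPM in si-FRA1 cells, with no overlap (0.96 ± 0.14 SE, adjusted p = 1.92e-06). In the other line it was at 13.2, 9.41 and 11.2 CPM in 1205Lu si-NT cells and 14.01, 10.2 and 13.3 CPM in si-FRA1 cells, and the groups overlapped (0.12 ± 0.13 SE, adjusted p = 0.519). The interaction was -0.83 ± 0.21 SE, adjusted p = 0.00301, so the effect was larger in A375 cells.

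STAT2, the STAT that carries the activation domain of the same complex, was at 29.9, 29.1 and 28.9 CPM in A375 si-NT cells and 34.9, 31.6 and 32.8 CPM in si-FRA1 cells, a small rise (0.17 ± 0.058 SE, adjusted p = 0.0155) that was not called without si-NT replicate 3 (adjusted p = 0.0501) or si-FRA1 replicate 1 (adjusted p = 0.111). It was at 21.1, 19.9 and 21.2 CPM in 1205Lu si-NT cells and 21.6, 22.9 and 22.6 CPM in si-FRA1 cells (0.09 ± 0.067 SE, adjusted p = 0.319). IRF7, which amplifies interferon production, was at 2.76, 2.41 and 2.897 CPM in A375 si-NT cells and 3.304, 3.29 and 3.31 CPM in si-FRA1 cells. Its values were 4.78, 4.796 and 4.23 CPM in 1205Lu si-NT cells and 6.57, 5.88 and 4.49 CPM in si-FRA1 cells. Neither line passed the test for IRF7, with 0.29 ± 0.19 SE, adjusted p = 0.206, in A375 and 0.28 ± 0.16 SE, adjusted p = 0.201, in 1205Lu cells.

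Among the RNA sensors, DDX58, which encodes RIG-I and is named RIGI in newer annotation, went up in one line and down in the other. RIG-I recognises viral RNA by its end. DDX58 was at 6.82, 7.19 and 5.21 CPM in A375 si-NT cells and 9.24, 10.97 and 10.3 CPM in si-FRA1 cells and at 13.7, 11.6 and 12.6 CPM in 1205Lu si-NT cells and 8.56, 11.3 and 10.6 CPM in si-FRA1 cells. The groups did not overlap in either line, and the log2 fold change was 0.65 ± 0.13 SE, adjusted p = 0.000137, in A375 and -0.34 ± 0.11 SE, adjusted p = 0.0233, in 1205Lu cells. The interaction was -0.98 ± 0.18 SE, adjusted p = 0.000139. The fall in 1205Lu cells was not called without si-NT replicate 1 (adjusted p = 0.112), si-NT replicate 3 (adjusted p = 0.0555) or si-FRA1 replicate 1 (adjusted p = 0.153), nor in the fit of all 12 samples (adjusted p = 0.0513).

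IFIH1, which encodes MDA5, the sensor of long double-stranded RNA, was at 7.14, 5.57 and 5.92 CPM in A375 si-NT cells and 8.66, 7.59 and 7.52 CPM in si-FRA1 cells and at 2.69, 2.71 and 3.899 CPM in 1205Lu si-NT cells and 3.16, 4.77 and 6.16 CPM in si-FRA1 cells. It was called higher in both, with 0.35 ± 0.13 SE, adjusted p = 0.0259, in A375 and 0.58 ± 0.22 SE, adjusted p = 0.0414, in 1205Lu cells, where the groups overlapped. Without 1205Lu si-FRA1 replicate 3 its value there was 0.35 (adjusted p = 0.272), and DESeq2 called it in neither line (adjusted p = 0.0527 and 0.0515). DDX60, a helicase linked to the same sensors, was at 7.500, 6.84 and 7.04 CPM in A375 si-NT cells and 8.56, 7.55 and 8.65 CPM in si-FRA1 cells and at 5.18, 6.62 and 4.55 CPM in 1205Lu si-NT cells and 5.93, 5.97 and 8.07 CPM in si-FRA1 cells. It passed in neither line (0.21 ± 0.12 SE, adjusted p = 0.144, in A375; 0.27 ± 0.17 SE, adjusted p = 0.215, in 1205Lu).

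The IFIT proteins bind viral RNA lacking host cap marks, and their 4 genes lie together on chr10. All 4 were called higher in A375 (against 25.7% of all genes tested), and IFIT1, IFIT2 and IFIT3 in 1205Lu cells (against 20.6%). IFIT1 was at 5.69, 5.14 and 6.12 CPM in A375 si-NT cells and 9.48, 9.05 and 9.74 CPM in si-FRA1 cells and at 0.7302, 0.622 and 0.246 CPM in 1205Lu si-NT cells and 1.12, 1.83 and 1.91 CPM in si-FRA1 cells. Its log2 fold change was 0.73 ± 0.12 SE, adjusted p = 1.62e-05, in A375 and 1.56 ± 0.40 SE, adjusted p = 0.0036, in 1205Lu cells, the last from 22, 14 and 6 counts in si-NT and 23, 41 and 40 in si-FRA1 samples. The si-NT and si-FRA1 values did not overlap in either line.

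IFIT3 was at 22.9, 21.6 and 23.5 CPM in A375 si-NT cells and 33.01, 32.3 and 35.01 CPM in si-FRA1 cells and at 2.36, 2.798 and 1.97 CPM in 1205Lu si-NT cells and 5.59, 5.04 and 5.49 CPM in si-FRA1 cells, again without overlap. The log2 fold change was 0.56 ± 0.061 SE, adjusted p = 5.03e-08, in A375 and 1.16 ± 0.18 SE, adjusted p = 2.57e-05, in 1205Lu cells, with a difference between lines of 0.62 ± 0.15 SE, adjusted p = 0.00272. IFIT2 was at 15.6, 13.4 and 15.7 CPM in A375 si-NT cells and 19.1, 20.8 and 19.4 CPM in si-FRA1 cells and at 3.65, 3.55 and 3.69 CPM in 1205Lu si-NT cells and 6.61, 5.97 and 7.93 CPM in si-FRA1 cells. Every silenced sample exceeded every control sample of its line (0.40 ± 0.082 SE, adjusted p = 0.000216, in A375; 0.89 ± 0.16 SE, adjusted p = 9.48e-05, in 1205Lu). For IFIT2 the difference between lines was 0.50 ± 0.16 SE, adjusted p = 0.0211, not called without 1205Lu si-FRA1 replicate 3 (adjusted p = 0.0834). IFIT5 changed least, with 0.15 (adjusted p = 0.0247) in A375 and 0.17 (adjusted p = 0.0972) in 1205Lu cells.

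The OAS enzymes, which make the messenger that activates RNase L, split. OAS3, the member that responds to long double-stranded RNA, was at 68.05, 70.6 and 66.9 CPM in A375 si-NT cells and 53.2, 52.8 and 55.1 CPM in si-FRA1 cells and at 6.31, 7.55 and 5.62 CPM in 1205Lu si-NT cells and 4.91, 5.21 and 3.96 CPM in si-FRA1 cells. The silenced samples were below all control samples in both lines, with -0.36 ± 0.043 SE, adjusted p = 1.84e-07, in A375 and -0.48 ± 0.16 SE, adjusted p = 0.0211, in 1205Lu cells. The 1205Lu call was lost without si-NT replicate 2 (adjusted p = 0.124) or si-FRA1 replicate 3 (adjusted p = 0.113). OAS1, its neighbour on chr12, was called higher in A375 (0.59, adjusted p = 0.00194) and not in 1205Lu cells (0.15, adjusted p = 0.73). OAS2 passed in neither line (0.037, adjusted p = 0.869, and 0.60, adjusted p = 0.0715).

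OASL, an OAS relative without enzyme activity, had 32, 34 and 41 counts in A375 si-NT and 47, 71 and 68 in si-FRA1 samples (1.45, 1.34 and 1.697 against 1.44, 2.96 and 2.75 CPM). Its groups overlapped and the test was not passed (0.65 ± 0.28 SE, adjusted p = 0.0594), although it was without si-FRA1 replicate 1 (0.93, adjusted p = 0.0063). In 1205Lu cells OASL had 1 to 10 counts and was not tested. The antiviral GTPases MX1, MX2, GBP1 and GBP2, which block viral replication or disrupt pathogen membranes, did not pass the test in either line (lowest adjusted p = 0.0579 in A375, for GBP1, and 0.554 in 1205Lu, for MX2). Their log2 fold changes ran from -0.32 to 0.32 in A375 and from -0.28 to 0.14 in 1205Lu cells.

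Of the membrane proteins, BST2 had the largest rise of the set in A375 cells. It was at 2.58, 1.62 and 0.993 CPM in A375 si-NT cells and 4.41, 4.59 and 6.59 CPM in si-FRA1 cells, with every silenced sample above every control sample (1.59 ± 0.25 SE, adjusted p = 7.62e-06). In 1205Lu cells it had 0, 2 and 4 counts in si-NT and 5, 0 and 0 in si-FRA1 samples and was not tested. IFITM1, IFITM2 and IFITM3, which block virus entry, are related genes side by side on chr11, and reads may be split among them, so their values are uncertain. In A375 cells they gave 1.09 (adjusted p = 0.0105), 0.30 (adjusted p = 7.65e-06) and 0.093 (adjusted p = 0.00545), in that order. In 1205Lu cells IFITM3 gave 0.43 (adjusted p = 6.08e-12) and IFITM2 0.66 (adjusted p = 0.304). PLSCR1, a phospholipid-binding protein, passed in neither line (-0.044, adjusted p = 0.708, and 0.17, adjusted p = 0.189).

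ISG15 is a ubiquitin-like tag, UBE2L6 the enzyme that carries it, HERC5 the main ligase that attaches it and USP18 the protease that removes it. In A375 cells 4 of these 5 genes, counting the related HERC6, were called higher, against 25.7% of all genes tested. They were ISG15 0.42 (adjusted p = 0.0381), UBE2L6 0.38 (adjusted p = 4.12e-07), HERC6 0.47 (adjusted p = 0.000493) and USP18 0.32 (adjusted p = 0.0498). HERC5 was at 0.81 (adjusted p = 0.0531). In 1205Lu cells HERC6 passed, and ISG15 gave -0.20 (adjusted p = 0.768), UBE2L6 0.30 (adjusted p = 0.108) and USP18 0.37 (adjusted p = 0.107). HERC6 was at 11.3, 9.05 and 8.98 CPM in A375 si-NT cells and 13.6, 13.4 and 13.7 CPM in si-FRA1 cells and at 4.15, 3.46 and 3.73 CPM in 1205Lu si-NT cells and 6.32, 4.55 and 5.16 CPM in si-FRA1 cells, without overlap in either line. Its 1205Lu value was 0.47 ± 0.17 SE, adjusted p = 0.0312, and the call was lost with DESeq2 (adjusted p = 0.0503), with no filter (adjusted p = 0.0512) and without 4 of the 6 samples in turn (si-NT 2 or 3, si-FRA1 1 or 3; adjusted p = 0.0504 to 0.167).

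PARP9 and DTX3L form an ADP-ribosylation and ubiquitin ligase pair, and their genes start head to head on chr3, PARP9 at chr3:122527924-122564577 on the minus and DTX3L at chr3:122564338-122575203 on the plus strand. They moved in opposite directions. DTX3L was at 81.2, 75.7 and 76.1 CPM in A375 si-NT cells and 48.1, 49.4 and 51.5 CPM in si-FRA1 cells and at 53.3, 51.2 and 55.4 CPM in 1205Lu si-NT cells and 40.3, 42.03 and 42.2 CPM in si-FRA1 cells. No sample overlapped between groups, with -0.65 ± 0.044 SE, adjusted p = 9.93e-12, in A375 and -0.38 ± 0.048 SE, adjusted p = 1.68e-06, in 1205Lu cells. PARP9 rose, with 0.51 (adjusted p = 1.71e-08) in A375 and 0.20 (adjusted p = 0.0148) in 1205Lu cells. The annotated spans overlap. The authors describe the RNA libraries as strand-specific, but the sources used here do not give the strand setting of the counting, so the 2 genes may share reads.

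PARP14, a further ADP-ribosyltransferase close by, was at 103, 111 and 112 CPM in A375 si-NT cells and 132, 133 and 133 CPM in si-FRA1 cells and at 54.2, 51.2 and 50.9 CPM in 1205Lu si-NT cells and 72.1, 72.1 and 71.4 CPM in si-FRA1 cells. It rose in both lines (0.28 ± 0.034 SE, adjusted p = 1.88e-07, in A375; 0.44 ± 0.042 SE, adjusted p = 3.71e-08, in 1205Lu) with no overlap. TRIM21, an antibody receptor inside the cell, was at 5.06, 5.02 and 5.54 CPM in A375 si-NT cells and 7.74, 7.75 and 8.69 CPM in si-FRA1 cells and at 10.02, 10.04 and 8.99 CPM in 1205Lu si-NT cells and 11.7, 14.5 and 13.8 CPM in si-FRA1 cells. It also rose in both without overlap (0.62 ± 0.13 SE, adjusted p = 0.000223, in A375; 0.44 ± 0.11 SE, adjusted p = 0.00242, in 1205Lu). SP100, a scaffold of nuclear bodies, was at 52.7, 51.2 and 52.6 CPM in A375 si-NT cells and 58.4, 60.2 and 54.7 CPM in si-FRA1 cells and at 59.1, 58.3 and 57.1 CPM in 1205Lu si-NT cells and 53.1, 59.7 and 56.01 CPM in si-FRA1 cells. Its small rise was called in A375 (0.14 ± 0.046 SE, adjusted p = 0.0126), though not without si-NT replicate 2 (adjusted p = 0.0586) or si-FRA1 replicate 2 (adjusted p = 0.0651), and it did not pass in 1205Lu cells (-0.066 ± 0.046 SE, adjusted p = 0.283). TRIM22 gave 0.56 (adjusted p = 0.0382) in A375 and 0.22 (adjusted p = 0.649) in 1205Lu cells.

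ISG20, an exonuclease that degrades viral RNA, was called in opposite directions in the lines. It was at 12.9, 13.4 and 11.3 CPM in A375 si-NT cells and 21.1, 19.5 and 22.1 CPM in si-FRA1 cells and at 18.9, 17.6 and 21.2 CPM in 1205Lu si-NT cells and 13.3, 11.7 and 9.55 CPM in si-FRA1 cells. All silenced A375 samples were above their controls and all silenced 1205Lu samples below theirs. The log2 fold change was 0.73 ± 0.086 SE, adjusted p = 1.22e-07, in A375 and -0.76 ± 0.11 SE, adjusted p = 8.76e-06, in 1205Lu cells, and the difference was -1.48 ± 0.15 SE, adjusted p = 1.16e-08.

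SAMD9 and SAMD9L, neighbouring genes on chr7 that restrict translation and growth, differed. SAMD9 was at 60.8, 61.2 and 58.7 CPM in A375 si-NT cells and 95.6, 92.7 and 88.95 CPM in si-FRA1 cells and at 15.6, 19.1 and 16.2 CPM in 1205Lu si-NT cells and 22.4, 26.3 and 24.2 CPM in si-FRA1 cells, and rose in both without overlap (0.61 ± 0.039 SE, adjusted p = 3.77e-12, in A375; 0.50 ± 0.084 SE, adjusted p = 5.39e-05, in 1205Lu). SAMD9L was at 24.5, 24.3 and 28.4 CPM in A375 si-NT cells and 45.1, 46.2 and 49.97 CPM in si-FRA1 cells, without overlap (0.87 ± 0.062 SE, adjusted p = 3.13e-11). In the other line it was at 12.9, 15.4 and 13.6 CPM in 1205Lu si-NT cells and 15.1, 16.1 and 17.2 CPM in si-FRA1 cells, with overlap (0.19 ± 0.091 SE, adjusted p = 0.0996). The interaction for SAMD9L was -0.66 ± 0.11 SE, adjusted p = 4.31e-05.

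XAF1, a promoter of apoptosis, was low, with 14, 29 and 15 counts in A375 si-NT and 56, 55 and 41 in si-FRA1 samples (0.633, 1.15 and 0.621 against 1.71, 2.29 and 1.66 CPM). Every silenced sample was higher (1.21 ± 0.33 SE, adjusted p = 0.00332). In 1205Lu cells XAF1 had 5 to 14 counts and was not tested. IFI6, a membrane protein that limits virus replication, was at 12.2, 12.8 and 12.6 CPM in A375 si-NT cells and 16.1, 15.7 and 16.5 CPM in si-FRA1 cells and at 9.79, 10.3 and 10.6 CPM in 1205Lu si-NT cells and 9.87, 9.14 and 10.4 CPM in si-FRA1 cells. It rose in A375 without overlap (0.36 ± 0.084 SE, adjusted p = 0.000897) and did not pass in 1205Lu cells (-0.074 ± 0.11 SE, adjusted p = 0.639).

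LGALS3BP, a secreted glycoprotein, was the most abundant of the 48 genes per kilobase of exon in A375 si-NT cells. It was at 338, 332 and 330.1 CPM in A375 si-NT cells and 357, 354 and 358 CPM in si-FRA1 cells and at 3.92, 2.71 and 3.899 CPM in 1205Lu si-NT cells and 5.83, 6.55 and 6.49 CPM in si-FRA1 cells. Its groups were apart in both lines, by 0.092 ± 0.021 SE, adjusted p = 0.000706, in A375 and by 0.82 ± 0.17 SE, adjusted p = 0.000495, in 1205Lu cells, and the effects differed by 0.73 ± 0.10 SE, adjusted p = 3.92e-06. Of 9 genes of this mixed group of effectors tested in A375 cells, 8 were called higher (against 25.7% of all genes tested), among them IFI44 at 0.31 (adjusted p = 0.00577). IFI44L gave 1.16 (adjusted p = 0.0032) in A375 and -0.49 (adjusted p = 0.489) in 1205Lu cells, and IFI35 0.18 (adjusted p = 0.0929) and -0.084 (adjusted p = 0.65). CMPK2, a mitochondrial nucleotide kinase, had 42, 35 and 42 counts in 1205Lu si-NT and 19, 23 and 5 in si-FRA1 samples (-1.10 ± 0.40 SE, adjusted p = 0.0333), and 6 to 14 counts in A375 cells, where it was not tested. RSAD2, IFI27 and EPSTI1 were tested in neither line, with at most 22, 10 and 19 counts in any sample. CMPK2 and RSAD2 overlap on opposite strands and may share reads, with the same limit on the strand setting of the counting.

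In control (si-NT) cells, the set stood lower in 1205Lu than in A375 cells. Of 45 genes tested between the si-NT groups, 32 were lower in 1205Lu (71.1%, against 39.8% of 19452 genes) and 9 higher (against 36.1%), with a median log2 difference of -0.996 beside -0.0294 over all genes. All 4 OAS genes, all 4 IFIT genes and all 5 ISG15 conjugation genes were lower in 1205Lu. OAS3 was at 68.5 ± 1.89 CPM (SD, n = 3) in A375 and 6.49 ± 0.977 CPM in 1205Lu cells, and LGALS3BP at 333 ± 3.93 and 3.51 ± 0.692 CPM. MX2 was at 45.8 ± 3.16 and 1.18 ± 0.181 CPM. IFI44 had 415, 378 and 354 counts in A375 and 1, 0 and 1 in 1205Lu si-NT samples, and 3, 6 and 2 in 1205Lu si-FRA1 samples.

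The 9 genes higher in 1205Lu si-NT cells were IRF7, IRF9, DDX58, IFITM3, PARP9, TRIM21, SP100, CMPK2 and ISG20. By log2 difference, IRF9 was higher by 0.96 ± 0.15 SE, adjusted p = 4.27e-06, DDX58 by 0.98 ± 0.13 SE, adjusted p = 2.49e-07, and TRIM21 by 0.90 ± 0.12 SE, adjusted p = 3.57e-07. IRF1 differed by -0.11 ± 0.099 SE, adjusted p = 0.312, and did not pass.

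**Figure D3:**
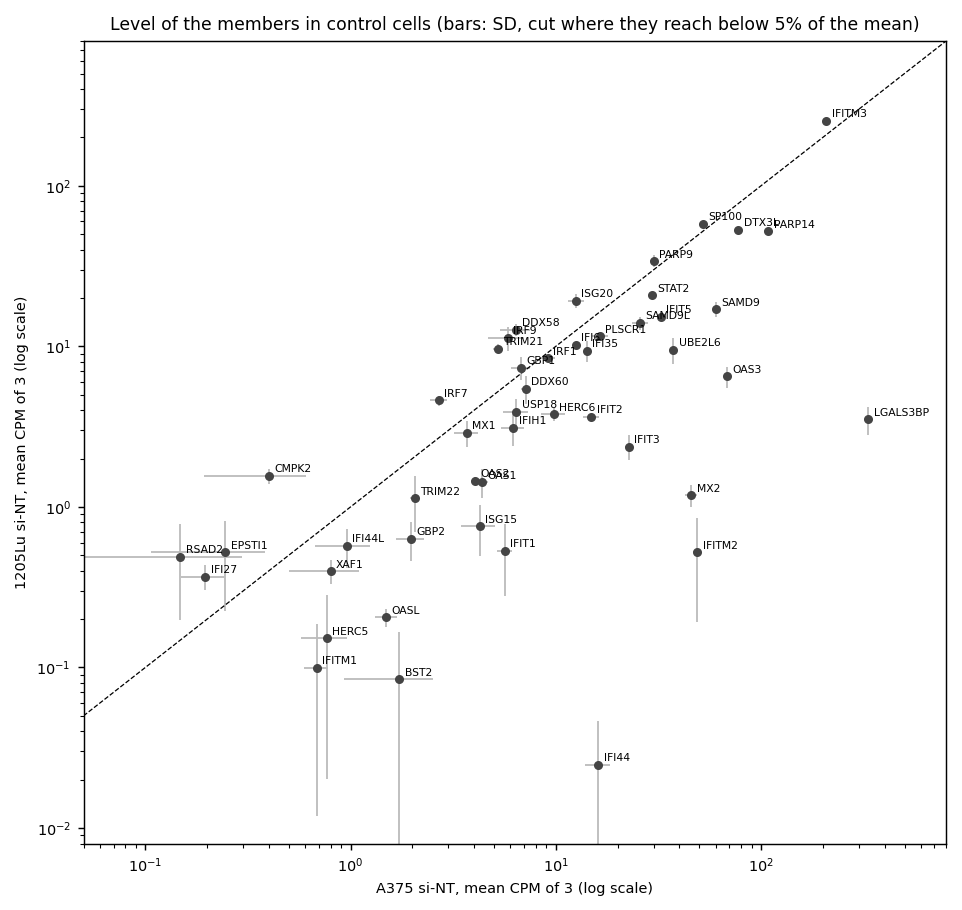
Mean CPM of the 48 genes in si-NT cells, A375 on the horizontal and 1205Lu on the vertical log axis, each a mean of 3 with SD bars; bars are cut where they would reach below 5% of the mean, and the dashed line marks equal levels. Most genes lie below the line (32 of 45 tested are lower in 1205Lu), with LGALS3BP, MX2, IFITM2 and IFI44 furthest below it.

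The genes that make or relay the interferon signal were viewed beside the set. Of 8 interferon ligands, 1 (IFNE) was tested and it passed in neither line (0.51, adjusted p = 0.207, and -0.44, adjusted p = 0.427), and the other 7 were too low to test. All 6 receptor subunits were called higher in A375 cells, against 25.7% of all genes tested. IL10RB, shared by interferon lambda and interleukin 10 receptors, gave 0.84 (adjusted p = 1.33e-07), IFNLR1 0.55 (adjusted p = 0.0486) and IFNGR1 0.50 (adjusted p = 2.33e-05). In 1205Lu cells 1 of 5 receptor subunits was higher and 1 lower, near the 20.6% and 19.9% of all genes tested. The type I receptor chain IFNAR1 gave 0.42 (adjusted p = 4.69e-07) in A375 and -0.23 (adjusted p = 7e-05) in 1205Lu cells.

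Among the negative regulators, SOCS3, which blocks JAK kinases, gave 0.25 (adjusted p = 0.00788) in A375 and 0.85 (adjusted p = 2.1e-07) in 1205Lu cells, and IRF2, a competitor of IRF1, 0.26 (adjusted p = 0.000108) and 0.52 (adjusted p = 8.62e-08). Of 12 sensors and adaptors tested in A375 cells, 6 were higher and 4 lower, and of 14 in 1205Lu cells 3 were higher and 3 lower. TLR3, the endosomal RNA receptor, rose in both (0.82, adjusted p = 6.04e-07, and 0.74, adjusted p = 0.00126). STING1, the adaptor of DNA sensing (listed as TMEM173), and IKBKE, an adaptor kinase, rose in A375 (0.80, adjusted p = 2.37e-12, and 0.65, adjusted p = 7.09e-05). MYD88, the adaptor of most Toll-like receptors, fell in both (-0.52, adjusted p = 1.58e-07, and -0.74, adjusted p = 3.68e-08), as did MAVS, the adaptor of RIG-I and MDA5 (-0.77, adjusted p = 1.5e-16, and -0.16, adjusted p = 0.000357). TICAM1, the adaptor of TLR3, fell in A375 (-0.62, adjusted p = 1.93e-07) and gave 0.023 (adjusted p = 0.847) in 1205Lu cells. Over the whole list of 39 genes, 19 of 30 tested were higher and 6 lower in A375, and 10 of 31 higher and 5 lower in 1205Lu cells. The shares of all genes were 25.7% and 25.1% in A375 and 20.6% and 19.9% in 1205Lu cells, and the counts of sensors and adaptors in 1205Lu cells were near them.

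Cut&Run asked whether FRA1 lay at these genes. A consensus peak within 3000 bp of an annotated start (GENCODE v44) was present at 22 of the 48 genes, 33 peaks of 54563 in all. Among genes tested in A375, 22 of 44 interferon-stimulated genes had such a peak, below the 57.6% of all genes. To call a peak enriched, every FRA1 sample of the line needed 10 or more counts, and 4 or more times the IgG count after adding 1 to the latter. By that rule 9 of the 48 genes had an enriched peak in A375 cells (20.5% of the 44 tested, against 32.4% of 16820 tested genes), and 0 had one in 1205Lu cells, against 4.54% of 17062; these are counts with no test. Without A375 FRA1 replicate 1, the shallowest of the 3, there were 15, beside 6793 of the 16820 tested genes. The rule leans on depth. The A375 FRA1 samples held 3354095 to 5316527 counts in peaks and the A375 IgG sample 383994, and with all samples scaled to the same total, 0 of the 48 genes and 100 of the 16820 tested genes passed in A375. The 1205Lu FRA1 samples held 583750 to 897407 counts, with a median of 5 or 6 per peak, so little could be detected there. The 1205Lu IgG sample held 314569.

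The 9 genes were IRF1, DDX58, OASL, IFIT3, SP100, ISG20, SAMD9, XAF1 and IFI6. IRF1 had a peak at chr5:132495506-132498463, which covers an annotated alternative start, with 251, 401 and 311 counts in the A375 FRA1 samples against 19 in the IgG sample. A smaller one lay at chr5:132509841-132510588, 1122 bp from an annotated start, with 61, 92 and 71 counts in the A375 FRA1 samples against 2 in the IgG sample. Neither peak covers the RefSeq promoter of IRF1 with the printed GAS match, at chr5:132490724-132491023. At both, 1205Lu counts were close to IgG, with 26, 36 and 24 counts in the 1205Lu FRA1 samples against 34 in the IgG sample at the first and 3, 4 and 5 counts in the 1205Lu FRA1 samples against 3 in the IgG sample at the second.

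ISG20 stood apart with 3 such peaks. Peak 1, at chr15:88635899-88636997, had 104, 156 and 124 counts in the A375 FRA1 samples against 13 in the IgG sample. Peak 2, at chr15:88638313-88639804, covers the RefSeq start with the AP-1 and ISRE matches printed earlier, and had 141, 214 and 173 counts in the A375 FRA1 samples against 11 in the IgG sample. Peak 3, at chr15:88648876-88649616, had 151, 230 and 186 counts in the A375 FRA1 samples against 9 in the IgG sample. Peak 2 had 20, 66 and 58 counts in the 1205Lu FRA1 samples against 14 in the IgG sample, and peak 3 had 26, 64 and 33 counts in the 1205Lu FRA1 samples against 6 in the IgG sample. Peak 1 had 6, 6 and 1 counts in the 1205Lu FRA1 samples against 10 in the IgG sample. In raw counts, peaks 2 and 3 were above IgG in every 1205Lu sample, and without replicate 1 of that line ISG20 passed the rule there. The 1205Lu IgG sample held fewer counts in peaks than the FRA1 samples, so these raw counts are not on an equal scale.

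At IFIT3 the peak chr10:89326674-89328338 holds the ISRE window printed for that gene, with 87, 134 and 116 counts in the A375 FRA1 samples against 17 in the IgG sample. IFI6 had 86, 139 and 132 counts in the A375 FRA1 samples against 10 in the IgG sample, next to its start at chr1:27672253-27673230. DDX58 had the lowest ratio to IgG of the 13 peaks, with 29, 58 and 32 counts in the A375 FRA1 samples against 6 in the IgG sample, at chr9:32526222-32526665, ending beside its start. OASL had 2 peaks in its vicinity, with 61, 106 and 89 counts in the A375 FRA1 samples against 6 in the IgG sample and 53, 97 and 71 counts in the A375 FRA1 samples against 3 in the IgG sample. SP100 had 32, 39 and 34 counts in the A375 FRA1 samples against 2 in the IgG sample, SAMD9 52, 43 and 47 counts in the A375 FRA1 samples against 6 in the IgG sample, and XAF1 67, 103 and 85 counts in the A375 FRA1 samples against 11 in the IgG sample, each between 1550 and 2220 bp from a start.

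**Figure D4:**
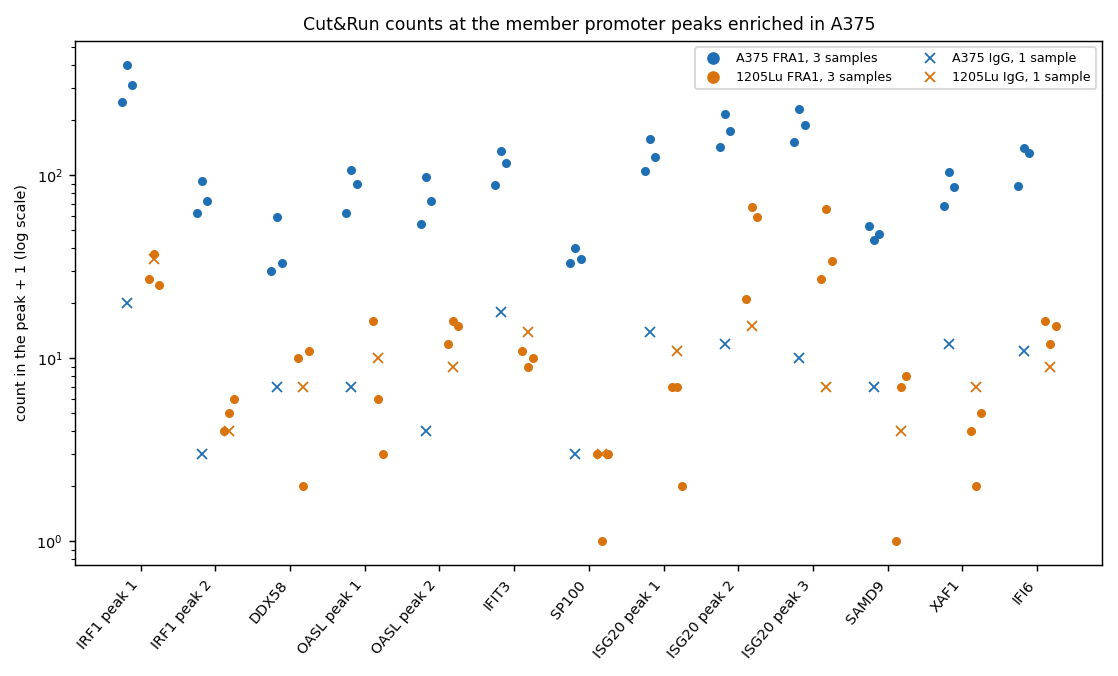
Counts plus 1, on a log axis, at the 13 promoter peaks of interferon-stimulated genes enriched in A375, with the 3 FRA1 samples of each line as circles and the single IgG sample as a cross (A375 blue, 1205Lu orange). All A375 FRA1 circles lie above the A375 cross, while all 3 circles of 1205Lu lie above the 1205Lu cross at 4 of the 13 peaks: ISG20 peaks 2 and 3, the second OASL peak and IFI6. Counts are raw and not scaled for depth, and the IgG samples held fewer counts in peaks than the FRA1 samples.

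The full AP-1 motif was found in 7 of these 13 peaks, and within 100 bp of the centre in 3. Over all 54563 peaks, 57.7% held it anywhere and 28.6% within 100 bp of the centre, so neither count stood above all peaks. The site in the second ISG20 peak is the AP-1 match printed earlier for its promoter. A further site, at OASL, which was not called, is not printed. The enriched peaks of DDX58, IFIT3, SP100, XAF1 and IFI6, which were also called higher in A375 cells, held 0 matches. The other sites at ISG20, IRF1 and SAMD9 are shown, since these genes rose in A375 cells. The motif is in capitals, with 30 bases each on the plus strand of GRCh38.
ISG20 peak 1, chr15:88636210-88636239, plus strand: tttgccctgagTGACTCAcctactgtcacc
ISG20 peak 3, chr15:88648925-88648954, plus strand: cctcatgacacTGACTCAgggcaggtcctg
ISG20 peak 3, chr15:88649304-88649333, plus strand: ttgtctcgtggTGAGTCAcatagtgcctca
IRF1 peak 1, chr5:132498409-132498438, plus strand: ggcaaccctggTGACTCAacctgggaatcc
IRF1 peak 2, chr5:132510224-132510253, plus strand: gagagaagtgaTGAGTCAtatacaaggata
SAMD9, chr7:93115931-93115960, plus strand: accattctatcTGAGTCActttcttgtatc
SAMD9, chr7:93115957-93115986, plus strand: tatccatttacTGAGTCAcgtctactccac
A motif match is a description of the sequence and not evidence of binding at that base.

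Between the lines, 24 of the 33 peaks were testable on the 6 FRA1 samples: 5 had more in 1205Lu (20.8%, against 28.1% of 45588 peaks) and 7 more in A375 (29.2%, against 34.5%), relative to all peaks. The 5 became 3 with total counts as library size, with no filter on low counts, and without any of the A375 FRA1 replicates 1, 2 and 3 or 1205Lu replicate 2. Without an A375 replicate, 14 of the peaks passed the filter and were tested, rather than 24. XAF1 (-2.29 ± 0.41 SE, adjusted p = 1.12e-05) and the first ISG20 peak (-2.19 ± 0.35 SE, adjusted p = 1.33e-06) had less in 1205Lu, whereas the second ISG20 peak had more (0.80 ± 0.20 SE, adjusted p = 0.000619). Both IRF1 peaks had less in 1205Lu (-0.80 ± 0.18 SE, adjusted p = 0.000335, and -1.53 ± 0.37 SE, adjusted p = 0.000537). At XAF1, ISG20 peak 1 and both IRF1 peaks the raw 1205Lu counts were around or below the raw 1205Lu IgG count. The raw A375 counts there were above the A375 IgG count, but the A375 FRA1 samples were much deeper than that IgG sample. With all samples scaled to the same total, 0 genes of the set passed the enrichment rule in A375. Whether these differences set signal against background was not tested. Of the 5 peaks with more in 1205Lu, the largest difference was at IFI35, chr17:43010523-43010934 (3.77 ± 0.49 SE, adjusted p = 2.68e-08). It had 10, 15 and 8 counts in the 1205Lu FRA1 samples against 3 in the IgG sample. In A375 it had 3, 5 and 7 against 5. The LGALS3BP peak had 5, 9 and 7 counts in the 1205Lu FRA1 samples against 8 in the IgG sample. The others were at ISG15 (0.92, adjusted p = 0.00939) and ISG20 peak 3 (0.48, adjusted p = 0.029). The ISG15 peak, chr1:999898-1001235, covers an annotated alternative start and not the RefSeq promoter of ISG15 at chr1:1013247-1013546. Of the 9 genes with an enriched peak in A375, 8 were called higher there after silencing, and OASL was not called. In the whole set 31 of the 44 tested were called higher, against 25.7% of all genes tested. Whether a rise went with a peak was not tested.

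Silencing effects were set beside the promoter motifs. In A375 cells the median log2 fold change was 0.354 over 23 tested genes with an ISRE match and 0.494 over 12 without. Of these, 16 with and 11 without were called higher, against 25.7% of all genes tested. In 1205Lu cells the medians were 0.174 over 19 genes with and 0.135 over 12 without. There 8 with and 3 without were called higher, against 20.6% of all genes tested. Genes with a GAS match had a median of 0.476 over 9 in A375 and 0.168 over 7 in 1205Lu cells. Genes without one had 0.403 over 26 and 0.156 over 24. The ranges of the groups with and without a motif overlapped in both lines, from -0.65 to 1.59 with and 0.143 to 1.21 without an ISRE in A375.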

How the data were processed

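RNA-seq was available for 12 samples and Cut&Run for 8. The authors aligned RNA reads to GRCh38 with STAR 2.7.7a after cutadapt 1.8.1 and deposited RSEM 1.3.0 expected counts per gene (Gencode v30), as whole numbers. For Cut&Run they aligned with Bowtie2 2.4.1, called peaks with MACS2 2.1.1.20160309 and deposited raw read counts per consensus peak; whether peaks were called per sample is not stated in the sources used here. Versions come from the submitters' processing notes.

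Counts were tested with edgeR 4.0.16 (R 4.3.3; quasi-likelihood test, filterByExpr, TMM, Benjamini-Hochberg over all features), each line alone for silencing and all 12 samples for the interaction and the si-NT comparison; SE is the log2 fold change divided by the root of F. Alternatives were DESeq2 1.42.0, upper-quartile scaling, other filters, a replicate block, 1 fit of all 12 samples and leaving out each sample. CPM uses TMM library sizes. Scripts were tested on simulated data. Precision rests on 20573412 to 32518903 counts per RNA sample and on the spread between the 3 samples of a group. Between RNA replicates of a group the chi-square was 2.545 to 3.414 times its degrees of freedom. With no molecular identifiers, counts are not independent molecules. GENCODE v44 gave starts and exons, RefSeq (GRCh38.p14) promoters. Values in every sample are given for transcription factors, RNA sensors, up to 8 called genes per line and direction (mean of at least 50 counts, groups apart), genes called in opposite directions and genes with an enriched peak; of the pathway genes, those called with an absolute log2 fold change over 0.5, with IFNE and IFNAR1 named after their values were seen; 1 pathway gene that meets this rule is not reported here. The genes and lists were chosen with earlier results of these data known.

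FRA1 replicates 2 and 3 of 1205Lu lay close together (over 18088 peaks the chi-square was 1.06 times its degrees of freedom, p = 1.07e-08) but differed by more than counting noise, and were kept as 2 samples.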

Additional observations from a re-analysis of the deposited data

Results flagged for a closer look

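The effect of silencing FRA1 differed between the lines for 17 genes, by the interaction test at an adjusted p under 0.05 (edgeR). These are 8 positive and 9 negative of 45 tested, 17.8% against 16.6% of all genes and 20% against 15.3%, near the background. The difference, 1205Lu minus A375 on the log2 scale, was positive for 8: IRF1 at 1.11 (adjusted p = 2.17e-07), IFIT2 at 0.50 (adjusted p = 0.0211), IFIT3 at 0.62 (adjusted p = 0.00272), IFITM3 at 0.35 (adjusted p = 3.56e-08), PARP14 at 0.17 (adjusted p = 0.013), DTX3L at 0.28 (adjusted p = 0.00138), IFI44 at 2.20 (adjusted p = 0.0466) and LGALS3BP at 0.73 (adjusted p = 3.92e-06). It was negative for 9: IRF9 at -0.83 (adjusted p = 0.00301), DDX58 at -0.98 (adjusted p = 0.000139), PARP9 at -0.30 (adjusted p = 0.00648), SP100 at -0.20 (adjusted p = 0.0256), ISG20 at -1.48 (adjusted p = 1.16e-08), SAMD9L at -0.66 (adjusted p = 4.31e-05), XAF1 at -1.58 (adjusted p = 0.0444), IFI6 at -0.42 (adjusted p = 0.0143) and IFI44L at -1.64 (adjusted p = 0.0314). The value for IFI44 rests on 0 to 6 counts in the 1205Lu samples and, as a fitted value, on the prior count added to them, and those for XAF1 and IFI44L on 5 to 14 and 5 to 17 counts there. ISG20 and DDX58 were called in opposite directions in the lines; SP100, IFI6 and IFI44L had log2 fold changes of opposite sign with the 1205Lu effect short of the threshold. Leaving out 1 sample at a time, XAF1 and IFI44 each lost the interaction call in 9 of 12 fits, IFI44L in 8, SP100 in 6, IFIT2 in 1, without 1205Lu si-FRA1 replicate 3 (adjusted p = 0.0834), and IFI6 in 1, without 1205Lu si-FRA1 replicate 2 (adjusted p = 0.0518). The other 11 genes kept it in all 12. With no filter on low counts it was lost for XAF1 (adjusted p = 0.165), IFI44 (adjusted p = 0.0892), IFI44L (adjusted p = 0.0757), SP100 (adjusted p = 0.0679) and IFI6 (adjusted p = 0.0584). PARP14 and IFI44 lost it with DESeq2 (adjusted p = 0.0543 and 0.0951) and with upper-quartile scaling (adjusted p = 0.0766 and 0.0515). With the replicate number as a block it was lost for IFI44 (adjusted p = 0.0538) and IFI44L (adjusted p = 0.0539).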

How the results depend on the processing

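Counts of genes called kept within 1.5 times under most settings: of 164 recomputed counts, 137 did and 27 moved. Requiring an absolute log2 fold change over 1 left 4 higher and 0 lower genes in A375, 3 higher and 1 lower in 1205Lu, 2 positive and 3 negative interactions, and 1 gene higher in 1205Lu si-NT cells. Leaving out each sample in turn gave 26 to 29 higher and 2 to 3 lower genes in A375, and 10 to 12 higher and 3 to 5 lower in 1205Lu. The 5 lower genes in 1205Lu became 3 with all 12 samples in 1 fit, and the 9 negative interactions 5 with no filter on low counts; the causes were not tested. Of the 48 genes, those with an enriched promoter peak in A375 numbered 18 at 2 times IgG (beside 8334 of 16820 tested genes). They numbered 4 at 8 times (2363), 18 within 10000 bp (7746) and 0 after scaling to equal totals (100). With a replicate left out they numbered 9 to 15 (15 without replicate 1, beside 6793). In 1205Lu they numbered 1 at 2 times IgG (beside 2079 of 17062), 1 within 10000 bp (1382), and 0 to 1 with a replicate left out. Peaks with more in 1205Lu fell from 5 to 3 with total counts as library size, 3 with no filter, 3 with the replicate block, and 3 to 4 with a sample left out. Averaging the close 1205Lu replicates, chosen after seeing the data, gave 4 and 6. Of 943 recomputed values of named genes, 889 kept direction and call, 48 lost the call, 6 gained one and 0 reversed.

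Replicate numbers are shared by the groups, but same-numbered samples did not deviate together (r from -0.0393 to 0.0188 for RNA, between treatments of a line and between lines, and from -0.0533 to 0.00297 for FRA1 Cut&Run between the lines), so the samples share only a number. With the replicate block, 31 genes were higher and 3 lower in A375, 12 and 5 in 1205Lu, 7 and 8 in the interaction, 9 and 32 between si-NT groups, and 3 and 6 peaks between lines.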
